A study of Mus musculus with 8 samples.

Results

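Among the places where RNA bound to Ptbp2 was recovered from embryonic mouse cortex, 5427 were narrow stacks, that is, short clusters of sequence tags in which most of the tags lay at exactly the same place. A tag is one mapped CLIP read. Tags of all libraries were pooled, and those on the same strand that shared at least 1 nt were joined into a cluster. A narrow stack is a cluster on chromosomes 1 to 19 that is at most 40 nt wide, has at least 10 tags over one base (its height) and has 50% or more of its tags sharing one start and end, called its commonest position below. The stacks made up 25.3% (exact 95% interval 24.7 to 25.9%) of the 21478 clusters of that height on these chromosomes. The stacks were chosen by their width, their height and the share of tags at the commonest position, so values of these 3 measures are descriptions and carry no test.

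Cortex was taken from wild-type CD1 mice at embryonic day 18.5, and 4 Ptbp2 HITS-CLIP libraries were made from each of 2 brains. The p-values below measure only the spread between libraries, which may be technical, since each brain is a single animal. Both brains are of one genotype, strain and age and received no treatment that the labels name. No input RNA or library of another antibody or genotype was analysed here, so strong binding and an abundant transcript cannot be told apart.

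Ptbp2 is the neuronal form of the polypyrimidine tract binding protein. It binds pyrimidine-rich stretches of pre-mRNA, often in introns beside alternative exons, and is best known in the developing brain for repressing exons that are used later in life. In HITS-CLIP, ultraviolet light crosslinks the protein to the RNA it touches, the RNA is trimmed by nuclease, and the fragments left on the immunoprecipitated protein are sequenced. Tags that share both ends can come from several RNA molecules trimmed to the same ends or from copies of a single molecule made during amplification. The sources used here do not say whether repeated reads had been collapsed, and for tags repeated within a brain these origins cannot be told apart. Coordinates are on mm9, counted from 1, and no gene is named, because the gene table at hand is for another assembly.

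The 8 libraries held 3098854 tags, 1932995 of brain 1 and 1165859 of brain 2, with 228424 to 545387 tags in a library. The fourth library of brain 2, the shallowest, stood apart: 18.6% of its tags repeated a position already seen in that library, against 8.09 to 12.8% in the other 7. Results that rest on it are given with and without it. The stacks held 100773 tags, 3.25% of all, and 71560 of these lay at the commonest position of their stack. Intervals on shares of counts are exact (Clopper-Pearson) and reflect counting error alone.

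Most stacks were small, and few tags lay outside their commonest position. The median stack had 13 tags, was 32 nt wide and held 4 distinct positions, with a median of 68.8% of its tags at the commonest one. As tags were 27 to 30 nt long, the 1790 stacks (33.0%) no wider than 30 nt were as narrow as a single tag can be. In each of the 5427 stacks the height equalled the number of tags, so that at least one base was covered by every tag. A single position held all tags in 242 stacks (4.46%), 2 to 5 positions occurred in 4340 and 6 or more in 845 (15.6%), up to 15. A height of 20 was reached by 1282 stacks, 40 by 318 and 100 by 38. The commonest position held 75% or more of the tags in 2022 stacks (37.3%) and 90% or more in 785 (14.5%).

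**Figure D1:**
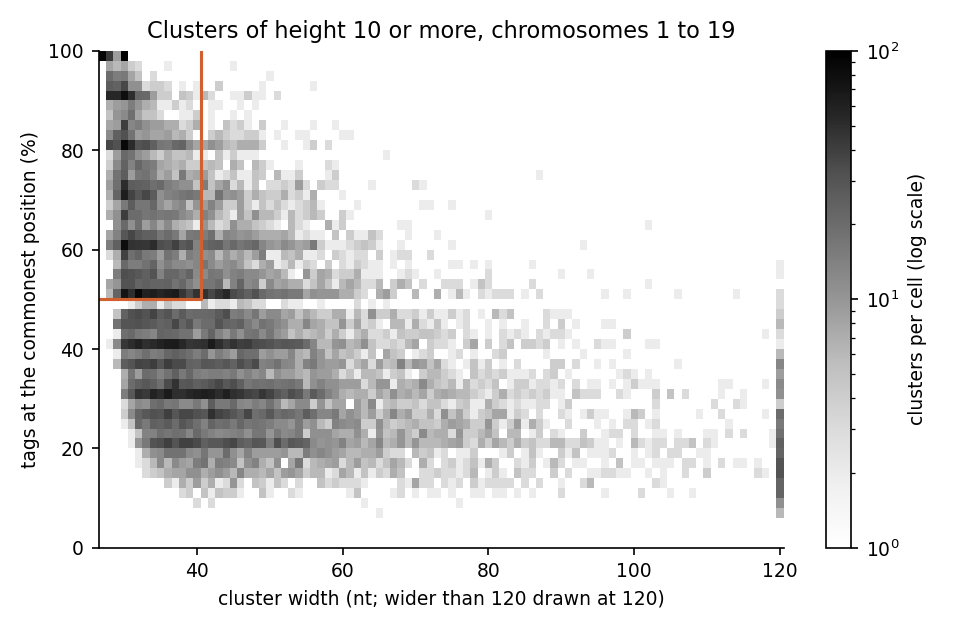
All 21478 clusters of height 10 or more on chromosomes 1 to 19, by width in nt (horizontal axis, clusters wider than 120 nt drawn at 120) and by the percentage of tags at the commonest position (vertical axis), with darker cells holding more clusters on a log scale. The orange lines bound the 5427 narrow stacks at 40 nt and 50%. Clusters lie on both sides of the lines, with few just under 50%.

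The rule sets its limits within a continuous spread of clusters. Exactly 40 nt wide were 206 stacks, and 227 clusters that met the rest of the rule were 41 nt wide. A share from 50% to under 55% was seen in 1155 stacks, 640 of them at exactly 50%, while 598 clusters had a share from 45% to under 50%. Height 10 was that of 1125 stacks, and 1290 clusters of height 9 met the other limits. The tallest clusters just too wide lay on the minus strands of chr3:150468720-150468760, with 423 tags of which 77.8% shared a position, and chr7:55392922-55392962, with 121 tags of which 77.7% did. Just inside that limit were the minus-strand stacks at chr11:101507155-101507194 (183 tags, 54.1%) and chr16:67546145-67546184 (81 tags, 85.2%). On the minus strand of chr19:33614973-33615004, 38 of 76 tags shared a position, which is just inside, and on the minus strand of chr13:14864162-14864197, 49.2% of 65 did, just outside, as did 49.1% of 53 on the plus strand of chr4:62587635-62587672.

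The tallest stack lay on the minus strand of chr12:57410906-57410941 and held 600 tags in 36 nt. The 4 libraries of brain 1 gave it 77, 75, 93 and 85 tags and those of brain 2 gave 58, 69, 81 and 62. Each library thus contributed a similar number although their depths differed up to 2.39-fold. Its commonest position, 27 nt from 57410907 to 57410933, held 385 tags (64.2%), and was filled by every library, with 41 to 58 tags each. A second position, 30 nt from 57410908 to 57410937, held 143 tags (23.8%), and its 5′ end lay 4 nt upstream of the commonest one. At this stack 59.7% of brain 1 tags and 69.6% of brain 2 tags were at the commonest position.

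The next stack, on the minus strand of chr6:26646313-26646345, held 564 tags, 84.4% of them at one 30-nt position from 26646315 to 26646344. Its libraries gave 70, 74, 79 and 85 tags in brain 1 and 64, 56, 71 and 65 in brain 2. The ranges overlapped in raw tags, and again no library was near 0. None of its 88 remaining tags shared the commonest 5′ end, which sets it apart from the stack described next. The nearest other cluster of height 10 or more on its strand was 323686 nt away, and 1 tag lay 50 to 1000 nt from it.

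The stack on the minus strand of chr14:53092293-53092323 held 417 tags and had the highest share of the 3, with 364 tags (87.3%) at 27 nt from 53092296 to 53092322. Its libraries gave 47, 57, 56 and 60 tags in brain 1 and 44, 49, 66 and 38 in brain 2. Of its 53 remaining tags, 50 shared the commonest 5′ end, so its tags differed almost only in where they ended. The stack on the plus strand of chr10:64306281-64306312 was its mirror image: 240 of 308 tags (77.9%) lay at one position, 52 of the 68 remaining tags shared its 3′ end and 0 its 5′ end. It had 31, 48, 38 and 46 tags in brain 1 and 32, 37, 47 and 29 in brain 2. The plus-strand stack at chr5:88152869-88152902, with 216 tags, was of this second kind too, as 32 of its 38 remaining tags shared the 3′ end and 0 the 5′ end. The commonest tags of these plus-strand stacks were 30 nt long, the longest class, so a tag keeping one of their ends could only be shorter. At the 27-nt tag of chromosome 14 it could only be longer, and the part of this limit was not tested.

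The other 10 of the 15 tallest stacks held 148 to 271 tags and were on chromosomes 1, 3, 4, 6, 7, 11, 12, 16 and 17, with 54.1 to 91.2% of tags at the commonest position. The lowest share was that of the 40-nt stack on chromosome 11 named above, where 39 of 183 tags (21.3%) lay at a second position. The highest was on the minus strand of chr11:92718489-92718518, where 135 of 148 tags lay at one 28-nt position. In some of these the share differed between brains in either direction. At the plus-strand stack of chr3:23464208-23464237 it was 80.8% in brain 1 and 60.0% in brain 2, and at the minus-strand stack of chr17:81726215-81726243 it was 88.8% and 73.8%. At the plus-strand stack of chr16:17222480-17222514 it was 57.9% in brain 1 and 72.4% in brain 2. The tags behind these percentages were 104 and 75 on chromosome 3, 143 and 122 on chromosome 17 and 95 and 105 on chromosome 16, and no test of these gaps was made.

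**Figure D2:**
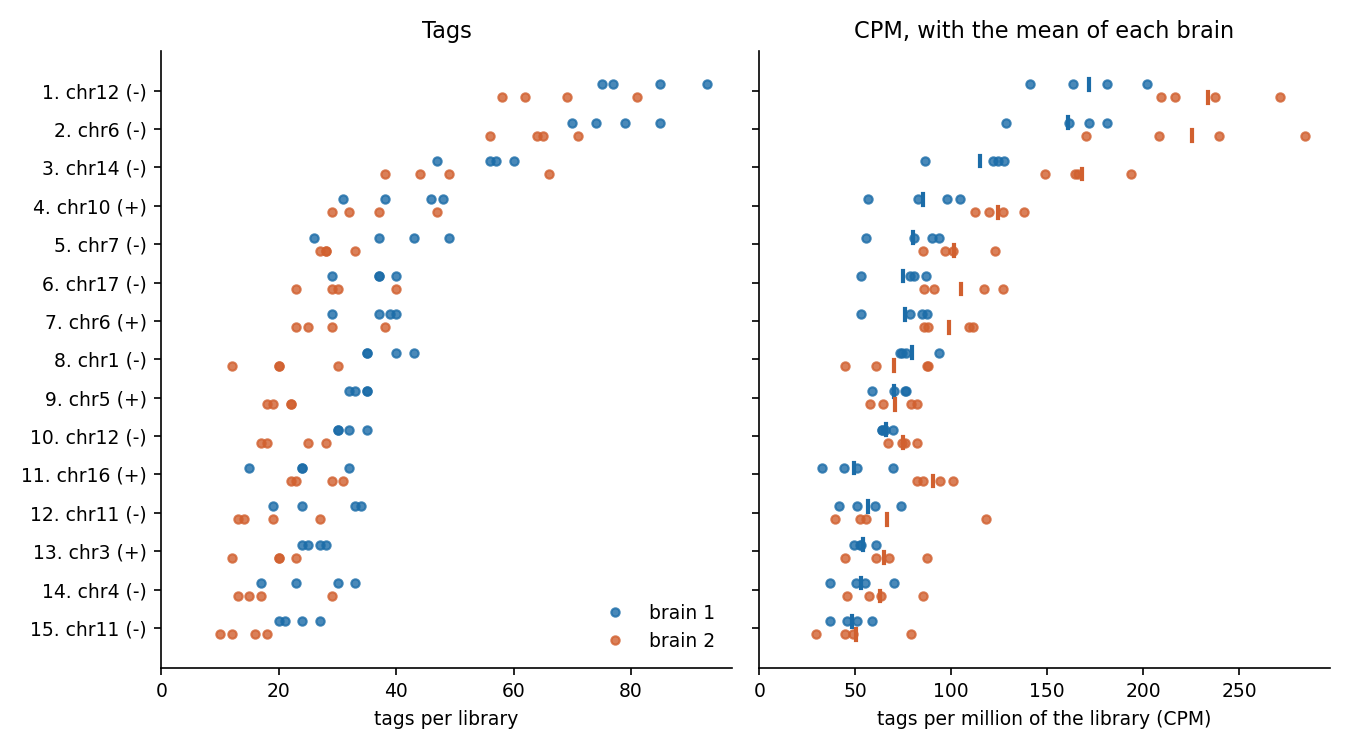
Tags per library (left) and CPM, the tags of a stack scaled to a common library total (right), in the 15 tallest narrow stacks, named by rank, chromosome and strand, with a point for each of 4 libraries of brain 1 (blue) and brain 2 (orange) and short vertical bars for the mean of each brain. At the tallest stack raw tags ran from 58 to 93 and overlapped between brains, while its CPM averaged 172 in brain 1 and 234 in brain 2.

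Among stacks with a single position, the tallest was on the plus strand of chr7:145091558-145091587, where all 57 tags had the same ends. It had 6, 6, 14 and 11 tags in brain 1 and 5, 4, 5 and 6 in brain 2. The next was on the plus strand of chr4:47383433-47383461, with 56 identical tags, 9, 9, 8 and 10 in brain 1 and 7, 5, 4 and 4 in brain 2. Both stacks therefore drew their identical tags from every library. Over all stacks, 68 was the largest number of tags at one position in one library, and 64 or more were reached in 1 stack only, the 564-tag stack on chromosome 6. Per the labels' protocols each read began with 4 degenerate bases, which can make 256 different codes.

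Tags of all 8 libraries were found in 1120 stacks (20.6%), and the commonest position itself was filled by all 8 libraries in 586 (10.8%). Only 15 stacks (0.276%) had their commonest position in a single library, and 50 had tags of 3 or fewer libraries. In 237 stacks (4.37%) one library gave 50% or more of the tags, as in 570 of the 16051 other clusters (3.55%). Spread over libraries went with the number of tags: stacks of 10 to 14 tags were seen in 5.79 libraries on average, and other clusters of 10 to 14 tags in 5.81. At 20 to 39 tags these averages were 7.36 and 7.34. No tag of brain 2 was present in 53 stacks and no tag of brain 1 in 2, and brain 2 had fewer tags in all. Of clusters called on brain 1 alone, 1.99% of stacks and 1.98% of other clusters had no brain 2 tag. Of those called on brain 2 alone, 0.143% and 0.142% had no brain 1 tag, so stacks were near the other clusters in this. The tallest stack lacking one brain, on the minus strand of chr2:162433635-162433665, had 6, 2, 5 and 3 tags in the libraries of brain 1. It had 0 in each of brain 2, where 0 of 1165859 tags is compatible with up to 3 tags.

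To measure dominance in libraries that had no part in choosing the position, clusters and the same rule were applied to one brain alone and the other brain was then read. In stacks chosen in one brain, most tags of the other brain lay at the chosen position. Brain 1 chose 2666 stacks, in which 71.6% of its own tags lay at the commonest position, and 66.1% ± 1.33 (SD, n = 4 libraries) of the brain 2 tags in them lay there too. The 4 libraries of brain 2 gave 65.4, 64.7, 66.7 and 67.6%. The other clusters that brain 1 called, 6971 in number, had 36.2% in brain 1 and 31.7% ± 0.564 in brain 2. The share was thus lower in brain 2 in stacks and in other clusters alike. Neither set of 4 library values came near the other. The rule sorts clusters by this same share in the choosing brain. Part of the gap between stacks and other clusters, here and below, therefore follows from the choice. Wider clusters with a dominant position were not measured separately.

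Of the brain 1 stacks, 1970 had 5 or more tags in brain 2, and in 1762 of these (89.4%) the commonest position of brain 2 was the same to the nucleotide at both ends. The position held 50% or more of the brain 2 tags in 1457 (74.0%). Of the other clusters, 58.9% kept their commonest position and 24.9% had 50% or more of the tags there. In 53 of the 2666 stacks (1.99%) brain 2 had no tag, and the other clusters lacked one as often, in 1.98%.

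The reverse choice gave like values. Brain 2 chose 1397 stacks with 71.5% of its tags at the commonest position, and 65.7% ± 0.816 (SD, n = 4) of brain 1 tags lay there, with 65.8, 66.7, 65.7 and 64.7% in the 4 libraries. Other clusters had 31.4% ± 0.288 in brain 1. The commonest position was the same in 1233 of 1352 stacks (91.2%) with 5 or more brain 1 tags and held 50% or more of them in 991 (73.3%), against 58.5% and 20.6% of other clusters. Lowering the height asked of the choosing brain to 5 gave 58.8% of brain 2 tags at the positions that brain 1 had chosen, and the commonest position was then the same in 82.9% of stacks with 5 or more brain 2 tags.

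**Figure D3:**
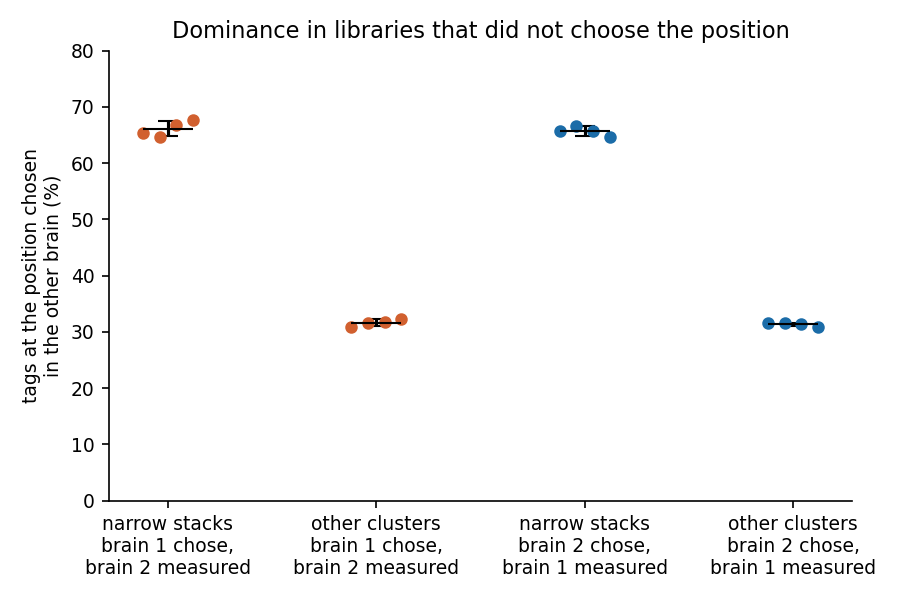
Percentage of tags (vertical axis) at the position that the other brain had chosen, for narrow stacks and other clusters, with a point for each of 4 libraries and black lines for the mean and SD. Stacks lie at 64.7 to 67.6% and other clusters at 31.0 to 32.3% when brain 1 chose, and at 64.7 to 66.7% and 30.9 to 31.6% when brain 2 chose.

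Tags off the commonest position of a stack kept its 5′ end more often than its 3′ end. Of the 29213 such tags in stacks, 40.6% had the same 5′ end and another 3′ end, 12.96% the same 3′ end and another 5′ end, and 46.4% neither. The width limit alone keeps tags close together, so the nearest comparison is with the 4390 clusters that were as narrow but had no dominant position. There 26.1% of the tags off the commonest position shared its 5′ end and 15.1% its 3′ end. In all other clusters these were 16.7% and 6.66%. The share with a common 5′ end was 38.0 to 44.0% over the 8 libraries in stacks and 16.3 to 17.8% in the other clusters, so the ranges did not overlap.

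Offsets were short and not symmetric. The 5′ end lay within 3 nt of the commonest one in 76.5% of the remaining stack tags, in 71.6% of those in narrow clusters with no dominant position and in 43.8% of those in all other clusters. In stacks 37.1% began downstream of the commonest 5′ end and 22.2% upstream, a larger gap than the 39.5% and 34.5% of the narrow clusters with no dominant position. The most frequent shift at the 3′ end was 1 nt further downstream (20.8%), ahead of 1 nt upstream (15.5%) and of an unchanged 3′ end (12.96%). Of the tags that kept the 5′ end, 47.3% were longer than the commonest tag and 52.7% shorter. Tags were only 27 to 30 nt long, which limits the shifts open to a tag, and the part of this limit was not tested.

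**Figure D4:**
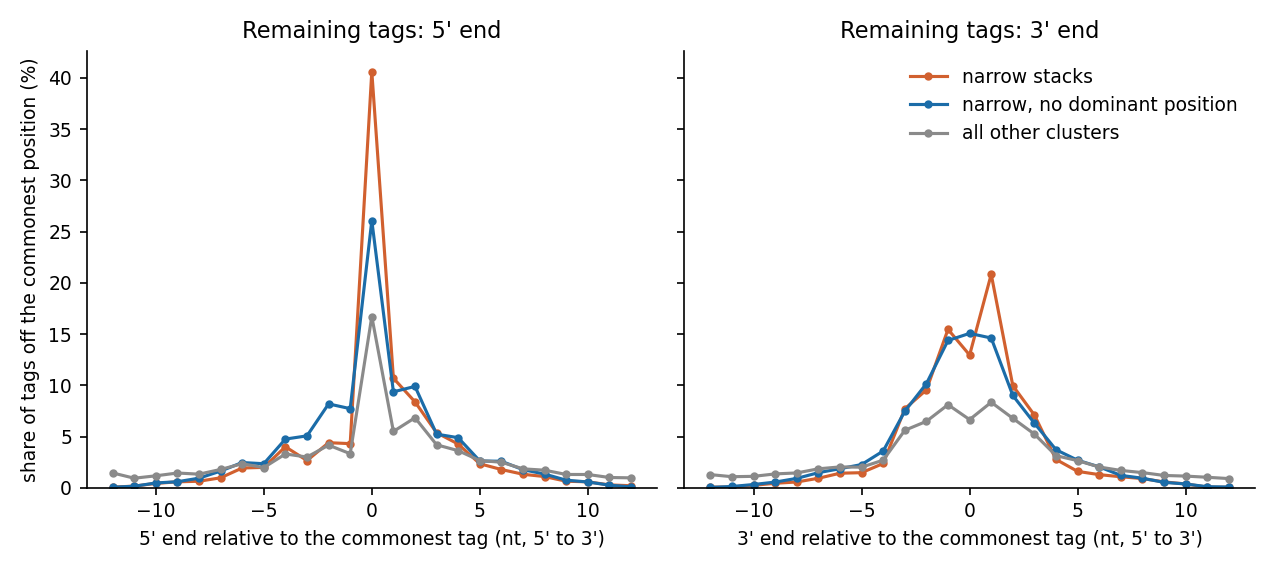
Distance in nt, read 5′ to 3′, of the 5′ end (left) and 3′ end (right) of each tag off the commonest position from that of the commonest tag, as a percentage of such tags, in narrow stacks (orange), equally narrow clusters with no dominant position (blue) and all other clusters (grey). At the 5′ end the value at distance 0 is 40.6% in stacks, 26.1% in narrow clusters with no dominant position and 16.7% in the others, and at the 3′ end stacks peak at 1 nt downstream with 20.8%.

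Tag length differed along with width. Among stack tags 38.7% were 30 nt long, the longest class, against 52.8% in the other clusters and 43.1% of all tags. In narrow clusters with no dominant position the share was 38.9%, close to that of stacks. The 30-nt share ran from 36.6 to 40.2% over libraries in stacks and from 49.7 to 54.8% in other clusters. A shorter tag takes less width, and its part in this difference was not tested. The commonest position was 27 nt long in 28.2% of stacks and 30 nt long in 45.1%, against 20.1% and 59.0% in other clusters. The share of tags that kept the 5′ end varied with this length: where the commonest tag was 28 nt long, 52.1% of the remaining stack tags kept its 5′ end, and where it was 30 nt long, 32.4% did, with 44.99% at 27 nt and 46.97% at 29 nt. A tag that kept the 5′ end of a 30-nt commonest tag could only be shorter, and that of a 27-nt one only longer. The part of this limit was not tested.

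Of the stacks, 40.6% (exact 95% interval 39.3 to 42.0%) were on the plus strand, close to the 41.2% (39.4 to 43.0%) of wider clusters with a dominant position and the 40.1% (39.1 to 41.1%) of wider clusters without one. Equally narrow clusters with no dominant position had 34.99% (33.6 to 36.4%). The interval of that class lay below those of the other 3 classes. Tags on the opposite strand inside the stack were rare and occurred in 41 stacks (0.755%) and in 213 of all other clusters (1.33%). The latter were 90 narrow clusters with no dominant position (2.05%), 14 wider clusters with a dominant position (0.491%) and 109 wider clusters without one (1.24%). By chromosome, stacks made up 21.4% (chromosome 16) to 27.4% (chromosome 10) of the clusters.

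Stacks stood in surroundings with fewer tags than wider clusters did. A stack had a median of 4 tags at 50 to 1000 nt from its edges on the same strand, and 20.9% had none. All other clusters had a median of 9, and 14.5% of them had none. A cluster grows wider where tags crowd, so the width limit is not independent of these counts, and among narrow clusters the order turned: those with no dominant position had a median of 3 tags around them and 28.2% had none. Wider clusters with a dominant position had a median of 11, and those without one had 13.

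The same pattern was seen in every library taken on its own. Of the stacks, 42.2% on average had a tag of the library 50 to 1000 nt away (30.5 to 49.95% over the 8 libraries), against 56.4% (44.8 to 64.7%) of the other clusters, a difference of -14.2 ± 0.788 percentage points (SD, n = 8) and lower in 8 of 8 libraries. Within clusters of 10 to 14 tags the difference was -8.70 points, and at 1000 to 10000 nt it was -8.37. Narrow clusters with no dominant position had such a tag in 37.2% (26.8 to 44.2%), so that stacks were 5.06 ± 0.796 points higher, in 8 of 8 libraries (exact paired permutation test, two-sided, p = 0.0078, the smallest that 8 libraries allow). The libraries come from 2 brains and share these clusters, which were called on their pooled tags. The p-value therefore does not measure the spread between clusters or animals, and the test was added after the data were seen.

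Taller stacks did not have more tags around them. The median number at 50 to 1000 nt was 4 in stacks of 10 to 14 and of 15 to 19 tags, 3 in those of 20 to 39, and 2 in those of 40 to 99 and of 100 or more. In other clusters the medians for the same classes were 7, 9, 12, 16 and 25. Stacks of 100 tags or more numbered 38, and other clusters of that size 204. From the lowest to the highest class the median width of other clusters went from 44 to 63.5 nt, while that of stacks was 32 to 33 nt. The part of width in this contrast was not tested, and narrow clusters with no dominant position were not split by their number of tags.

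**Figure D5:**
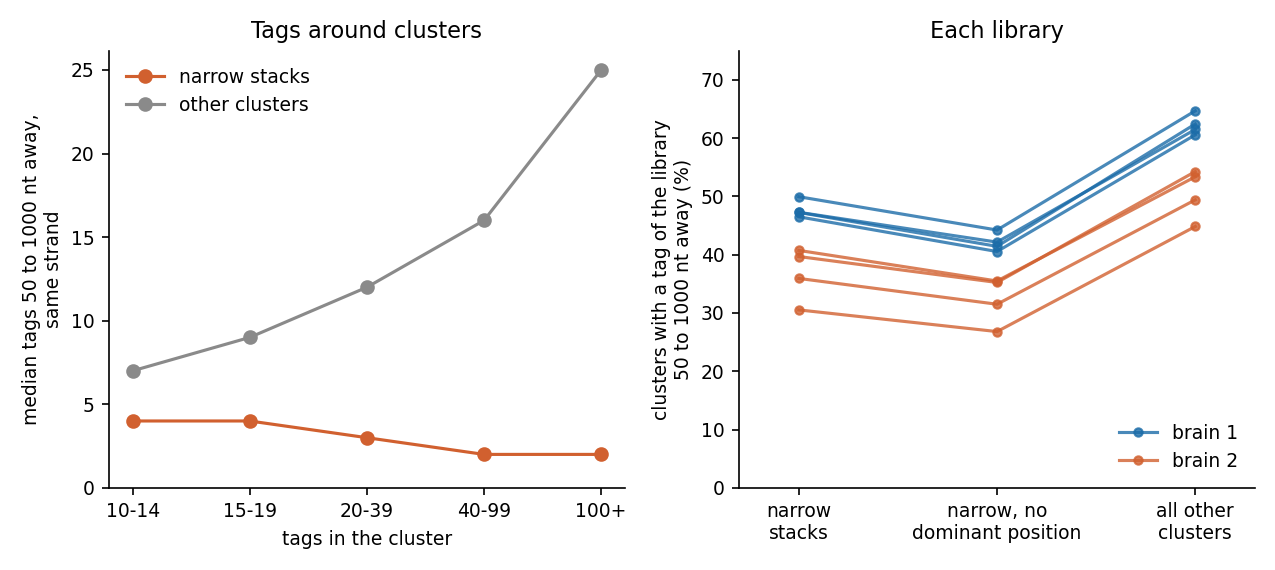
Left, median number of tags at 50 to 1000 nt on the same strand (vertical axis) by the number of tags in the cluster (horizontal axis), for narrow stacks (orange) and other clusters (grey), going from 4 to 2 in stacks and from 7 to 25 in other clusters. Right, percentage of clusters with such a tag in each of 8 libraries, joined by lines, which in every library was highest in the other clusters and lowest in narrow clusters with no dominant position.

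Neighbouring clusters followed the same order. Another cluster of height 10 or more lay within 1000 nt on the same strand of 649 stacks, 11.96% (exact 95% interval 11.1 to 12.9%). The share was 11.3% (10.4 to 12.3%) in narrow clusters with no dominant position, whose interval overlaps that of stacks, 25.5% in wider clusters with a dominant position and 30.6% in wider clusters without one. The median distance to the nearest such cluster was 41912 nt for stacks and 10697 nt for all other clusters. Among the latter, narrow clusters with no dominant position had a median of 50602.5 nt, farther than stacks. Of stacks with 10 to 14 tags 12.1% had a neighbour within 1000 nt and of those with 100 or more 2.63%. In other clusters the share went from 19.4 to 52.5%, and their median width from 44 to 63.5 nt.

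Few stacks had another stack nearby on their strand, and how many such pairs clusters at large would give was not tested. On one strand, 75 pairs of consecutive stacks lay within 1000 nt, 29 within 200 nt and 12 within 50 nt. When stacks no more than 1000 nt apart were joined into runs, 5280 stood alone, 70 runs held 2 stacks and 2 runs held more. The larger was on the minus strand of chr16:67545598-67546184, with 4 stacks and 124 tags. It holds the closest pair of all, 67545598-67545636 with 18 tags and 67545637-67545665 with 11, which touch without sharing a base, and ends with the 81-tag stack named above at the width limit. The other run was on the minus strand of chr15:34966974-34967576, with 3 stacks and 40 tags. On opposite strands the closest pair lay 163 nt apart, with 38 tags on the plus strand of chr6:57223993-57224029 and 17 on the minus strand of chr6:57224193-57224222, and it was the only such pair within 1000 nt.

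The extremes of isolation and crowding were both found. No tag of either strand lay within 10 kb of 6 stacks, the tallest 2 of which had 22 tags each, on the plus strands of chr4:144237259-144237290 and chr10:93830684-93830723. The first had 0, 2, 1 and 8 tags in brain 1 and 2, 5, 4 and 0 in brain 2. The second had 1, 3, 2 and 5 and then 2, 2, 4 and 3, so that it was present in all 8 libraries with no other tag around it. At the other end, the stack on the minus strand of chr19:5796882-5796920 had 19 tags itself and 1197 tags at 50 to 1000 nt.

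Between brains, stacks as a group took a slightly larger share of the tags of brain 2. The 4 libraries of brain 1 had 3.04, 3.23, 3.19 and 3.08% of their tags in stacks and those of brain 2 had 3.42, 3.29, 3.36 and 3.88%. The ranges did not overlap, with means of 3.13 ± 0.088% and 3.49 ± 0.269% (SD, n = 4), a difference of 0.353 points (exact permutation test, two-sided, p = 0.0286, the smallest that 4 against 4 allows). Without the fourth library of brain 2 the difference was 0.221 points. As a share of the tags in clusters of height 10 or more, stacks had 21.5 ± 0.463% and 22.3 ± 0.469%, which did not pass (exact permutation p = 0.0857). The other clusters held 11.4 ± 0.119% and 12.2 ± 1.17% of library tags (exact permutation p = 0.257), a difference of 0.758 points that was 0.187 without the fourth library of brain 2. Without that library the share of stacks among tags in tall clusters differed by 0.898 points (exact permutation p = 0.0857). Brain 2 libraries were shallower, and the part of depth in these shares was not tested.

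No difference in dominance between brains was detected. The commonest positions held 71.0, 70.5, 70.8 and 71.0% of stack tags in the libraries of brain 1 and 70.4, 68.8, 72.2 and 73.9% in those of brain 2. The means were 70.8 ± 0.219% and 71.3 ± 2.19% (SD, n = 4), 0.492 points apart (exact permutation test, two-sided, p = 0.714), with values of brain 2 on both sides of brain 1. The sign turned without the fourth library of brain 2, the highest, to a difference of -0.37 points.

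For single stacks, tags per library were compared with limma voom over all 466 clusters of height 10 or more with enough tags, and p-values were adjusted over all of them by Benjamini and Hochberg. This test called 6 clusters at an adjusted p under 0.05, or 1.29%, of which 5, or 1.07%, were higher in brain 2. Only 79 stacks, each with 63 or more tags, had enough to be tested, and 1 of them was called. That is 1 of 79 stacks in either direction and 1 of 79 higher in brain 2, beside backgrounds of 1.29% and 1.07%, and this count is near those backgrounds.

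The called stack lay on the minus strand of chr5:58424059-58424090 and had 147 tags, 107 of them (72.8%) at one position from 58424061 to 58424090. It had 7, 14, 11 and 16 tags in brain 1 and 18, 23, 34 and 24 in brain 2. Each library of brain 2 had more tags than any of brain 1, although brain 2 was sequenced less deeply. As CPM after scaling between libraries, these were 26.99 ± 9.98 and 79.2 ± 11.0 (SD, n = 4), a log2 change of 1.64 ± 0.26 (SE; limma voom adjusted p = 0.000365). Its commonest position alone had 5, 11, 8 and 10 tags in brain 1 and 13, 20, 26 and 14 in brain 2.

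The 15 tallest stacks were all tested and none was called. At the tallest, scaled values were 183 in brain 1 and 218 in brain 2, a log2 difference of 0.27 ± 0.14 (SE; limma voom adjusted p = 0.276). The nearest to the threshold was the plus-strand stack at chr16:17222480-17222514, with 24, 15, 32 and 24 tags in brain 1 and 22, 31, 29 and 23 in brain 2. Its log2 difference was 0.74 ± 0.21 (SE; limma voom adjusted p = 0.0592), which passed with scaling by total tags (0.92, adjusted p = 0.0182) and without the third library of brain 1 (0.84, adjusted p = 0.0238), with an adjusted p of 0.0182 to 0.49 over 13 alternatives. This stack had 66 tags at 50 to 1000 nt and another cluster 60 nt away. The largest value in the other direction among the 15 was at the minus-strand stack of chr1:112931693-112931725, with 40, 35, 43 and 35 tags in brain 1 and 12, 20, 30 and 20 in brain 2, a log2 difference of -0.35 ± 0.20 (SE; limma voom adjusted p = 0.329).

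Over the 79 tested stacks the median log2 difference was 0.06, from -1.40 to 1.64, and over all 466 clusters the median was 0.02. Brain 2 was higher in 46 of the 79 (58.2%), against 51.3% of all clusters. Scaling by total tags moved these medians to 0.24 and 0.16 and put 56 of the 79 (70.9%) above 0, against 62.7%. The scaled values of the brains did not overlap in 9 stacks (11.4%), beside a background of 12.7% of all tested clusters. Of these, 8 were higher in brain 2, where the background is 6.22%, and 1 was lower, where it is 6.44%. At an unadjusted p under 0.05 the test found 15 stacks (18.99%) and 89 of all clusters (19.1%). Counting each position once per library left 0 stacks with enough tags for the test, so the comparison of single stacks rests on repeated tags.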

How the data were processed

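Mapped Ptbp2 HITS-CLIP tags of 8 libraries were deposited as one list of chromosome, start, end, strand and tag name, with no counts, and its unit is the tag position. Bowtie (no version given), mm8 and mm9 are named in the submitters' processing notes. The largest tag end on chromosome 1, 197194446, fits mm9. Collapsing of repeated reads and treatment of multiply mapping reads are not stated in any source used here. The library of each tag was read from its name, and 0 tags were left over.

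Tags per cluster and library were compared with limma 3.58.1 (voom, R 4.3.3), since the file is a tag list and not a count table. Clusters needed the CPM of 10 tags at median depth in 4 libraries and 15 tags in all. Scaling between libraries used trimmed means of the log ratios, leaving out 30% of ratios and 5% of levels at each end. CPM here is a share of the deposited tags of a library, times 1e+06. Tested on simulated data for the 466 clusters of this comparison, it found 82% of increases of 2-fold and 100% of those of 4-fold, 70% of falls to 0.5 and 96% of falls to 0.25, and called 11 of 266 unchanged clusters (4.14%). Each of these changes was given to 50 simulated clusters, and the spread between libraries was set, not taken from the data. That is a far larger part than the 6 of 466 called in the data, so these rates can be too high for the stacks. Neighbours and surrounding tags were counted on the strand of the cluster.

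The stacks and the tests were chosen with earlier results of these data known. Stacks named are the 15 tallest, those past an adjusted p of 0.05, the tallest lacking one brain, those beside each limit of the rule and the closest pairs. The tallest single-position stacks, the most isolated and the most crowded were picked after their values were seen. Sequences were not used, since no mm9 genome was at hand.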

Additional observations from a re-analysis of the deposited data

Results flagged for a closer look

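In 44 sets of 4 libraries of one brain examined (library shares and the values of named stacks), there were 2 in which one library lay well away from its 3 companions, and chance alone puts about 1 set in 20 there. At the minus-strand stack of chr14:53092293-53092323, the first library of brain 1 had 86.2 CPM and the other 3 had 121.8 to 127.8. At the minus-strand stack of chr1:112931693-112931725, the third library of brain 1 had 93.5 CPM and the other 3 had 73.3 to 76.4. Neither stack was called between brains.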

How the results depend on the processing

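The number of stacks, 5427, follows its limits: it was 2022 at a share of 75%, 26600 at height 5 and 1282 at height 20. With each position counted once per library it was 1259. A position can then hold at most 8 tags, so clusters of many tags cannot meet the share limit and part of this drop is fixed in advance. The number stayed within 1.5 times in the other alternatives, including 4219 to 4797 when each library was left out. The stack on chromosome 5 was called in 13 of 13 alternatives that tested it, with log2 changes of 1.27 to 1.84 and adjusted p of 5.33e-06 to 0.00877. Stacks called were 2 with scaling by total tags and 1 to 2 when each library was left out, the chromosome 16 stack being the second. The difference in library share was 0.752 points (p = 0.0857) over tags in tall clusters and 0.221 to 0.420 when each library was left out, with exact permutation p of 0.0571 without any one library of brain 1. The difference in dominance ran from -0.368 to 1.32 when each library was left out, reversing without brain 2 replicate 4. Dominance of brain 1 stacks in brain 2 was 58.8% at height 5 and 65.6 to 66.6% when each library was left out. The share with a neighbour was 5.99% within 200 nt, 24.4% within 5000 nt, 5.07% at height 20 and 13.3% with a 10-nt overlap. The surrounding-tag difference reversed to 5.06 points against narrow clusters with no dominant position. This difference and all its alternatives were added after seeing the data. Replicate numbers did not pair the brains: same-numbered libraries had correlations of -0.05, 0.002, -0.034 and -0.046, and the replicate block gave 1 called stack (log2 1.52, adjusted p = 0.000954) and 5 called clusters. The letter of the titles as a random block, with a correlation of 0.051, gave 1 and 6. Few tags per stack limit single-stack comparisons: 79 of 5427 had enough to be tested.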

Other observations

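Outside chromosomes 1 to 19, 472 clusters met the same limits, and 433 of them were on chromosome X. There they made up 36.2% (exact 95% interval 33.5 to 39.03%) of 1195 clusters of height 10 or more, above the 25.3% (24.7 to 25.9%) of chromosomes 1 to 19 and above the 21.4 to 27.4% of each of these taken singly. Clusters on chromosome X were more often narrow: 62.1% (59.3 to 64.9%) were at most 40 nt wide, against 45.7% (45.04 to 46.4%) on chromosomes 1 to 19. A dominant position was seen in 44.4% (41.6 to 47.3%) of them, against 38.6% (37.9 to 39.2%). The intervals cover counting error only, and no test was made.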
